A study of Equus caballus with 24 samples.

Results

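The Toll-like receptors TLR1 to TLR8, the adaptor MYD88 and the co-receptor CD14 were followed in the long bone and the pituitary of 2 horse breeds. The 10 genes were looked up by their symbol in the deposited tables, which list 24232 genes with reads and 24248 genes with RPKM (reads scaled by gene length and library size). Each of 9 genes had a single row in both tables, namely TLR1 (ENSECAG00000002387), TLR2 (ENSECAG00000018028), TLR3 (ENSECAG00000000197), TLR4 (ENSECAG00000010339), TLR6 (ENSECAG00000001958), TLR7 (ENSECAG00000007883), TLR8 (ENSECAG00000009180), MYD88 (ENSECAG00000001774) and CD14 (ENSECAG00000001784). TLR5 was not found under that symbol and was not analysed here.

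RNA came from the Debao pony (DP), a small pony breed, and the Mongolian horse (MH), a taller breed, with no treatment named for any group. The 12 horses, 6 of each breed, were female, and both the pituitary and the epiphysis of a long bone, its end portion, were sampled from them. Long bone of ponies gave the groups DPLBJ (juvenile) and DPLBA (adult), and that of MHs gave MHLBJ (juvenile) and MHLBA (adult). Pituitary of ponies gave DPPJ (juvenile) and DPPA (adult), and that of MHs gave MHPJ (juvenile) and MHPA (adult). Each group held 3 libraries from separate horses, the study put the boundary between juvenile and adult at 3 years, and all RNA was depleted of ribosomal RNA before sequencing.

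Toll-like receptors are membrane proteins of the innate immune system that recognise molecules shared by many microbes. TLR2 pairs with TLR1 or TLR6 at the cell surface and binds bacterial lipoproteins, and TLR4, served by CD14, binds lipopolysaccharide. TLR3, TLR7 and TLR8 sit in endosomes and bind RNA. All of these receptors except TLR3 signal through MYD88, which recruits IRAK kinases and leads to NF-kB and cytokine genes, whereas TLR3 uses TICAM1. In marrow and other tissues many of these receptors are carried by myeloid cells such as neutrophils, monocytes and macrophages, and by B cells, but not by these cells alone.

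Several libraries stood apart in their marker genes. Between 11433209 and 27007342 reads were counted on genes per library. In the long bone, the summed level of 5 neutrophil marker genes (MPO, S100A12, CSF3R, LTF and MMP8, of 10 genes listed) ran from 1147 to 9992 CPM (reads per 1000000 reads of the library) in 5 DP libraries, while DPLBJ replicate 1 had 13.3 CPM. The same library had 50.4 CPM of the 6 cartilage markers, against 635 to 24255 CPM in the other 5 DP libraries, and MHLBA replicate 1 had 1687 CPM against 10.2 to 128 CPM in the other 5 MH libraries. In the pituitary, DPPA replicate 1, MHPA replicate 1 and all 3 MHPJ libraries had 0.3 to 39.0 CPM of 7 anterior pituitary marker genes, against 11231 to 34298 CPM in the other 7 libraries, although all carry the label pituitary. The long bone, adult pituitary, tissue and breed-by-tissue results are given with and without these libraries. Leaving them out was not planned and was chosen after seeing the data. For the juvenile pituitary, and so for the pituitary over both stages, no MHPJ library would remain.

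In the long bone, 6 of the 9 genes were called between the breeds, beside 19.3% of all genes tested. TLR1, TLR2, TLR7, TLR8 and MYD88 were 2.94-fold (MYD88) to 3.78-fold (TLR7) higher in DPs than in MHs, and TLR4 was lower in DPs. TLR3, TLR6 and CD14 did not pass the threshold. In the pituitary none of the 9 genes passed it over both stages, where 7.86% of the genes tested did. The plot of the reads by library shows these levels.

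**Figure D1:**
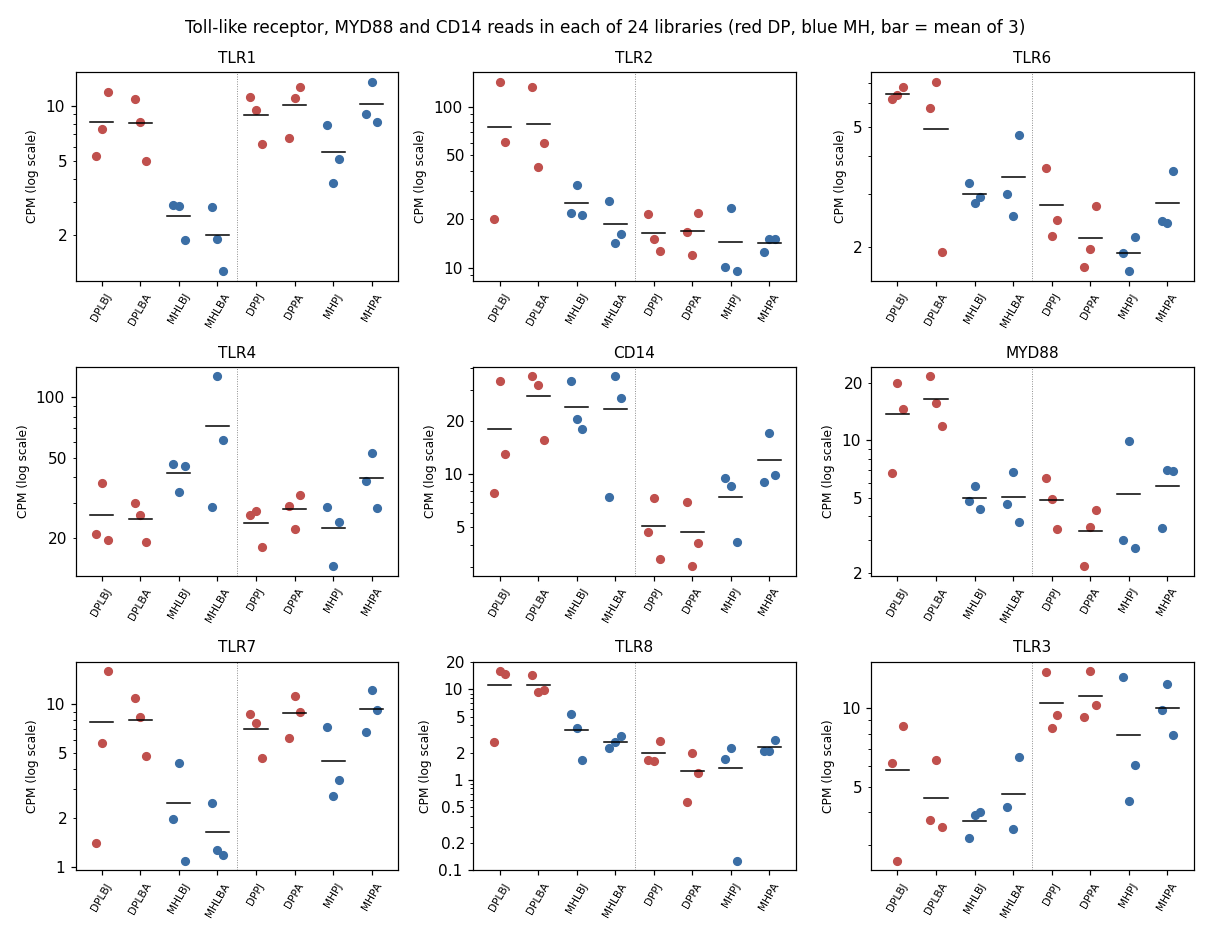
CPM (log scale, 1 panel per gene with its own range) in each library by group, with red points for DP, blue points for MH and a bar at the mean of 3 libraries. The long bone groups are left of the dotted line and the pituitary groups right of it, and TLR1 is the gene whose 6 DP long bone points, 5.04 to 11.8 CPM, all lie above the 6 MH points, 1.27 to 2.89 CPM.

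The surface receptor TLR2, which binds lipoproteins with TLR1 or TLR6 ranged widely among DPs. It measured 20.0, 143 and 60.5 CPM in DPLBJ and 133, 42.2 and 59.3 CPM in DPLBA. It measured 22.0, 32.7 and 21.3 CPM in MHLBJ and 25.8, 14.3 and 16.3 CPM in MHLBA. DPLBJ replicate 1 fell among the MH libraries, and the other 5 DP libraries lay above all of them. Over both stages, the log2 fold change between DPs and MHs was 1.77 (SE 0.45, adjusted p = 0.0251).

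TLR1, the partner of TLR2 for triacylated lipoproteins, measured 5.35, 7.45 and 11.8 CPM in DPLBJ and 10.9, 8.18 and 5.04 CPM in DPLBA. In MHs it measured 2.89, 2.85 and 1.89 CPM at the juvenile stage and 2.82, 1.90 and 1.27 CPM at the adult stage. The breeds did not overlap, and the log2 fold change was 1.81 (SE 0.35, adjusted p = 0.0113). Such separation of 6 DP from 6 MH libraries was found for 5.61% of the 14735 genes tested.

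TLR6, the partner of TLR2 for diacylated lipoproteins, measured 6.17, 6.36 and 6.80 CPM in DPLBJ against 3.27, 2.81 and 2.93 CPM in MHLBJ, without overlap. In adults it measured 5.78, 7.06 and 1.93 CPM in DPLBA and 2.99, 2.54 and 4.70 CPM in MHLBA, and the groups overlapped through DPLBA replicate 3. Over both stages its log2 fold change of 0.78 (SE 0.34, adjusted p = 0.133) did not reach the fold threshold. TLR1, TLR6 and TLR10 are related genes that neighbour each other in the RefSeq annotation of the TB-T2T assembly, where the spans of TLR1 and TLR6 overlap. The division of reads between them is therefore uncertain, since the tool that made the deposited counts and its strand setting are not given in the sources used here.

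TLR4, the receptor for lipopolysaccharide, went the other way. It measured 20.9, 37.5 and 19.5 CPM in DPLBJ and 29.7, 25.9 and 19.1 CPM in DPLBA. It measured 46.9, 33.9 and 45.8 CPM in MHLBJ and 28.6, 127 and 61.1 CPM in MHLBA. The breeds overlapped in both stages, and MHLBA replicate 2 was the highest library. The log2 fold change between DPs and MHs was -1.14 (SE 0.32, adjusted p = 0.0335). Without MHLBA replicate 2 it was -0.82 (adjusted p = 0.0664) and no longer passed the fold threshold.

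CD14, which hands lipopolysaccharide to TLR4, measured 7.82, 33.6 and 12.9 CPM in DPLBJ and 35.6, 31.9 and 15.5 CPM in DPLBA. It measured 33.6, 20.4 and 18.0 CPM in MHLBJ and 7.44, 35.7 and 26.8 CPM in MHLBA. The breeds overlapped over almost their whole range, and the log2 fold change was -0.10 (SE 0.43, adjusted p = 0.897).

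Among the endosomal receptors, TLR7, which binds single-stranded RNA, measured 1.40, 5.79 and 16.0 CPM in DPLBJ and 10.9, 8.38 and 4.82 CPM in DPLBA. In MHs it measured 1.97, 4.35 and 1.09 CPM at the juvenile stage and 2.48, 1.27 and 1.19 CPM at the adult stage. DPLBJ replicate 1 was again within the MH range and the other 5 DP libraries were above it. The log2 fold change was 1.92 (SE 0.57, adjusted p = 0.0396).

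TLR8, another receptor for single-stranded RNA and a neighbour of TLR7 in the same annotation, measured 2.63, 16.0 and 14.9 CPM in DPLBJ and 14.5, 9.35 and 9.80 CPM in DPLBA. In MHs it measured 5.32, 3.74 and 1.64 CPM at the juvenile stage and 2.22, 2.61 and 3.06 CPM at the adult stage. The pattern was that of TLR7, with DPLBJ replicate 1 alone among the MH values, and the log2 fold change was 1.83 (SE 0.44, adjusted p = 0.0212).

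TLR3, the receptor for double-stranded RNA, ran from 2.60 to 8.57 CPM in the DP long bone and from 3.19 to 6.49 CPM in the MH long bone. Its log2 fold change of 0.25 (SE 0.34, adjusted p = 0.641) did not pass the test.

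The adaptor MYD88 measured 6.75, 20.0 and 14.7 CPM in DPLBJ and 21.7, 15.7 and 11.8 CPM in DPLBA. It measured 4.78, 5.76 and 4.37 CPM in MHLBJ and 4.62, 6.80 and 3.73 CPM in MHLBA. DPLBJ replicate 1 lay just under the highest MH library, MHLBA replicate 2, and the other DP libraries were higher. The log2 fold change was 1.55 (SE 0.31, adjusted p = 0.0122).

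Differentially expressed genes (DEGs) were called at the study's threshold, which asks for a fold change above 2 and P below 0.05 without adjustment. In the long bone over both stages, 19.3% of the genes tested were DEGs, 11.4% higher and 7.97% lower in DPs, against 5 of 9 members higher and 1 lower. All 6 also had an adjusted p under 0.05, which 17.1% of the genes tested had. The median log2 fold change of the 9 members was 1.55, and that of all genes tested was -0.01. An alternative chosen after seeing the data left out DPLBJ replicate 1 and MHLBA replicate 1, and 6 members were called. The share of all genes called in that fit was not computed, so this count has no background beside it. The log2 fold changes were then 2.10 for TLR1, 2.17 for TLR2, -1.25 for TLR4, 2.38 for TLR7, 2.03 for TLR8 and 1.70 for MYD88. DPLBJ replicate 1 was the lowest DP library for TLR2, TLR7, TLR8 and MYD88, so leaving it out raises their DP level. The larger differences of these genes are therefore no separate support.

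Within the juvenile long bone, where 13.8% of the genes were DEGs and 8.33% were higher in DPs, 4 members were called, all higher in DPLBJ than in MHLBJ. Their log2 fold changes were 1.70 for TLR1 (SE 0.45), 1.60 for TLR2 (SE 0.66), 1.11 for TLR6 (SE 0.36) and 1.50 for MYD88 (SE 0.47). None had an adjusted p under 0.05 (0.154 to 0.272), as was the case for every gene of this comparison. TLR1, TLR6 and MYD88 did not overlap between the groups, as did 21.9% of the genes tested. The TLR2 difference was 0.65 (adjusted p = 0.463) without DPLBJ replicate 2, and TLR2 also lost its call without DPLBJ replicate 3 and without each of the MHLBJ libraries, and kept it without DPLBJ replicate 1. It was not called with the replicate number as a block (1.20), without normalization factors (1.36) or with limma either. TLR6 lost its call in the same settings, at 1.12 with the block and 0.89 without normalization factors, and without MHLBJ replicate 2 or MHLBJ replicate 3. MYD88 lost its call without MHLBJ replicate 3, and MYD88 and TLR1 lost theirs with limma on log2(RPKM + 1). The number of called members was 6 without DPLBJ replicate 1, 2 without MHLBJ replicate 2 and 1 without MHLBJ replicate 3.

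Within the adult long bone, where 18.3% of the genes were DEGs and 10.3% were higher in DPs, 5 members were higher in DPLBA than in MHLBA. The log2 fold changes were 1.93 for TLR1 (SE 0.52), 1.97 for TLR2 (SE 0.49), 2.21 for TLR7 (SE 0.54), 2.02 for TLR8 (SE 0.39) and 1.64 for MYD88 (SE 0.39). These 5 genes did not overlap between the groups, as did 29.5% of the genes tested, and TLR8 alone had an adjusted p under 0.05 (0.0441). TLR4 was lower in DPLBA, at -1.57 (SE 0.49, adjusted p = 0.113). Without MHLBA replicate 2 this was -0.91 (adjusted p = 0.232). In the fit of the long bone without DPLBJ replicate 1 and MHLBA replicate 1, the same 6 members were called in adults, at 2.28 for TLR1, 2.30 for TLR2, -1.96 for TLR4, 2.65 for TLR7, 1.94 for TLR8 and 1.59 for MYD88, and TLR1, TLR2 and TLR4 had an adjusted p under 0.05. In juveniles that fit called 5 members, at 1.92 for TLR1, 2.03 for TLR2, 2.12 for TLR7, 2.12 for TLR8 and 1.82 for MYD88, and TLR6 (1.14) was not among them. TLR7 and TLR8 were called there after their lowest DP library, DPLBJ replicate 1, was left out. That fit used all remaining long bone libraries together, whereas the juvenile and adult results used only the groups compared. A change of call therefore does not rest on the left-out libraries alone. The shares of all genes called in that fit were not computed at either stage.

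**Figure D2:**
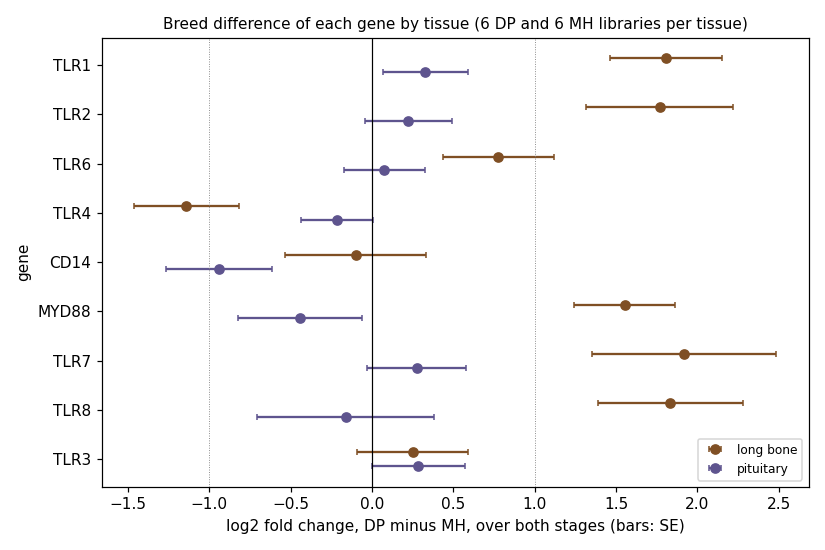
Log2 fold change between DPs and MHs over both stages (horizontal axis, bars are SE) for each gene (vertical axis), with brown points for the long bone, purple points for the pituitary and dotted lines at a fold change of 2. The long bone points of TLR1, TLR2, TLR7, TLR8 and MYD88 lie between 1.55 and 1.92, and all pituitary points lie between -0.94 and 0.33.

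Marker genes of several cell types differed between the breeds in the same libraries. In bulk tissue, fewer cells of a type and less RNA per cell cannot be told apart. All 5 neutrophil markers found were higher in DPs in the long bone, at a median log2 fold change of 5.67. Their summed level ran from 13.3 to 9992 CPM in DPs (median 1538 CPM) and from 8.7 to 112.6 CPM in MHs (median 13.5 CPM), and MPO, the granule enzyme of neutrophils and their precursors, had a median of 198 CPM in DPs and 0.55 CPM in MHs. Of 9 macrophage and monocyte markers found of 10 listed, 6 were higher in DPs (AIF1, C1QA, C1QB, C1QC, CSF1R and TYROBP), and the summed level ran from 402 to 2123 CPM in DPs and from 302 to 1093 CPM in MHs. Of the B cell markers, CD79A and CD79B, which form the signalling part of the B cell receptor, were higher in DPs by 3.47 (SE 0.93, adjusted p = 0.0286) and 2.35 (SE 0.59, adjusted p = 0.0236) on the log2 scale, and MS4A1, CD22 and PAX5 were not called. None of the 6 T cell markers was called, and none had an unadjusted P under 0.05, with summed levels of 19.7 to 85.0 CPM in DPs and 40.5 to 100.2 CPM in MHs. All 5 erythroid markers found were higher in DPs, with summed levels of 0.3 to 1557 CPM against 0.4 to 3.5 CPM in MHs. DPLBJ replicates 2 and 3 and DPLBA replicate 2 were the DP libraries above the MH range, and the other 3 were at 0.33 to 0.74 CPM. All 5 cartilage markers tested were higher in DPs, as were 3 of 4 osteoblast markers, whose sum had a median of 6201 CPM in DPs and 1040 CPM in MHs, and 1 of 6 osteoclast markers (2032 and 842 CPM). Of the markers listed for microglia, the macrophages of the brain, 3 of 6 were higher, with sums of 33.3 to 195 CPM in DPs and 4.4 to 23.8 CPM in MHs. This sum did not follow the macrophage markers among DPs. It was highest in DPLBJ replicate 1, with a macrophage sum of 402 CPM, and lowest in DPLBJ replicate 2, with 1736 CPM. Lower in DPs were 3 of 5 adipocyte markers (medians of the sum 520 and 1688 CPM) and 2 of 5 endothelial markers (1190 and 2105 CPM). No marker found was at 0 in every library of either breed in these lists. The part of these cells in the differences of TLR1, TLR2, TLR7, TLR8 and MYD88 was not tested.

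DPLBJ replicate 1 was within the range of the MH libraries for 6 of the 9 members. It had the lowest marker sum of the DP long bone for neutrophils, macrophages, B cells, T cells, erythroid cells, osteoclasts and cartilage. Which of these, if any, has a part in its member levels was not tested. The other 5 DP libraries were above all 6 MH libraries for TLR1, TLR2, TLR7, TLR8 and MYD88. This split set a library aside after seeing the data, and its share over all genes was not computed. With all 6 DP libraries TLR1 alone lay above the MH libraries. Separation of the breeds in either direction was found for 5.61% of the genes tested. The plot of TLR2 beside the marker sums shows where each library lay.

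**Figure D3:**
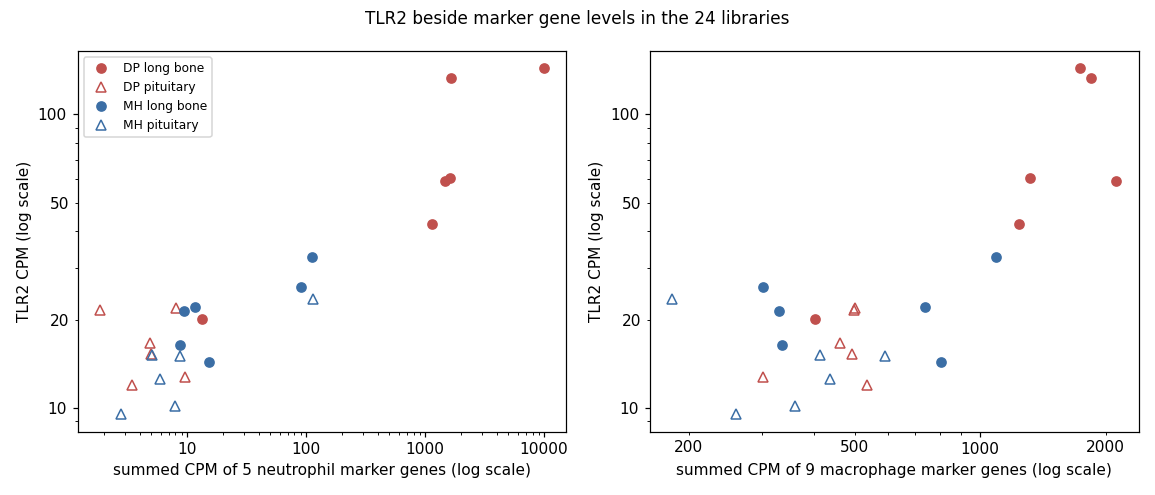
TLR2 CPM (vertical axis, log scale) against the summed CPM of 5 neutrophil markers (left) and 9 macrophage markers (right) on log scales, with filled circles for the long bone, open triangles for the pituitary, red for DP and blue for MH. The 5 DP long bone libraries with a neutrophil sum of at least 1147 CPM have 42.2 to 143 CPM of TLR2, and DPLBJ replicate 1, at a sum of 13.3 CPM, has 20.0 CPM. The macrophage sum of DPLBJ replicate 1, 402 CPM, is also the lowest of the DP long bone.

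The rest of the pathway was described from fixed lists. Of 8 co-receptors, chaperones and further receptors tested in the long bone, 5 were higher in DPs over both stages and none was lower. LY96 (also called MD-2), which binds lipopolysaccharide with TLR4, differed by 1.39 on the log2 scale (SE 0.46, adjusted p = 0.0562) while TLR4 itself was lower. TLR9, the receptor for unmethylated DNA, had 1.60 (SE 0.57), TLR10 had 1.35 (SE 0.58), and CD180 and its partner LY86, which act in B cells, had 1.57 (SE 0.60) and 1.21 (SE 0.54). None of these 5 had an adjusted p under 0.05, and TLR9, TLR10 and CD180 were at 2.61 CPM or less in every long bone library. The median of the 8 genes was 1.28.

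Downstream of MYD88, none of 18 adaptors and proximal kinases was called in the long bone over both stages, and their median log2 fold change was 0.17. TRAF3 (0.98) and IKBKE (0.89) had an adjusted p under 0.05 below the fold threshold. In adults 1 of the 18 was called, the kinase IKBKE, which was higher in DPLBA than in MHLBA by 1.21 (SE 0.31, adjusted p = 0.0786). Of 8 transcription factors, IRF5, which MYD88 activates, was higher in DPs by 2.45 (SE 0.52, adjusted p = 0.0144), with a median of 11.8 CPM in DPs and 1.88 CPM in MHs. None of the NF-kB subunits was called. Of 7 inhibitors, ATF3, a repressor of cytokine genes, was lower in DPs at -1.95 (SE 0.34, adjusted p = 0.0080), running from 4.87 to 9.19 CPM in DPs and from 12.1 to 44.1 CPM in MHs. NFKBIA, the inhibitor that holds NF-kB in the cytoplasm, was called in adults at -1.05 (SE 0.30, adjusted p = 0.0976). Of 5 cytokine targets tested, IL6 was lower in DPs at -1.93 (SE 0.69, adjusted p = 0.0733), with at most 1.80 CPM in any long bone library.

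In the pituitary, 7.86% of the genes tested were DEGs between the breeds over both stages, and 0 of the 9 members were called. CD14 alone had an unadjusted P under 0.05, at a log2 fold change of DPs against MHs of -0.94 (SE 0.33, adjusted p = 0.134). DESeq2 and limma also called 0 members. CD14 measured 4.73, 7.30 and 3.34 CPM in DPPJ and 6.99, 3.03 and 4.10 CPM in DPPA. It measured 9.52, 8.56 and 4.12 CPM in MHPJ and 9.04, 17.1 and 9.90 CPM in MHPA. The DP and MH values overlapped in juveniles and not in adults. Adult groups without overlap were found for 17.3% of the genes tested and also for TLR8, which was not called (-0.87, SE 0.52, adjusted p = 0.658). In the adult pituitary, where 2.93% of the genes were DEGs, CD14 was the member called, at -1.32 (SE 0.44, adjusted p = 0.515). It was at -1.91 (adjusted p = 0.0691) when DPPA replicate 1 and MHPA replicate 1 were left out, and it was not called without DPPA replicate 2, DPPA replicate 3 or MHPA replicate 2.

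In the juvenile pituitary, where 20.3% of the genes were DEGs, 0 of the 9 members were called, 0 had an unadjusted P under 0.05, and DESeq2 and limma called 0. The log2 fold changes ran from -0.60 for CD14 to 0.61 for TLR1, with SEs of 0.30 to 0.89. All 7 anterior pituitary markers found were higher in DPPJ than in MHPJ in this comparison. The breed and the near absence of anterior pituitary markers cannot be told apart here, since all 3 MHPJ libraries are low in them. MHPJ replicate 2 had 114 CPM of the neutrophil markers, against 1.9 to 9.6 CPM in the other 11 pituitary libraries, and it had the highest pituitary levels of TLR2 (23.5 CPM) and MYD88 (9.89 CPM). It also had the highest pituitary sums of erythroid (83.2 CPM) and endothelial (904 CPM) markers. Its macrophage (182 CPM) and microglia (5.15 CPM) sums were the lowest of the pituitary. The part of these cells in its TLR2 and MYD88 levels was not tested.

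The pathway lists held 8 co-receptors and chaperones, 18 adaptors and proximal kinases, 8 transcription factors, 7 inhibitors and 7 cytokine targets found once. Of these, the 9 genes named next were called in the juvenile pituitary, where 20.3% of all genes tested were DEGs. Whether the lists exceeded that share was not tested. The chaperone CNPY3, which helps receptors reach the cell surface, was higher in DPPJ by 1.18 (SE 0.15, adjusted p = 0.0166). The kinase IRAK4 was higher by 1.09, and IRAK3, an inhibitory member of that family, and SARM1 were lower at -1.66 and -1.45. Of the transcription factors, REL and IRF3 were higher by 1.26 and 1.15 and IRF7 was lower at -1.27. IL6 was lower at -2.96, with at most 0.83 CPM in these libraries, and CXCL10 was higher by 1.73. CNPY3 alone of these 9 genes had an adjusted p under 0.05. In the adult pituitary, where 2.93% of all genes tested were DEGs, RELB was the pathway gene called, at -1.39. Over both stages, where 7.86% were, CD36, IRAK3 and IL6 were called, all lower in DPs, at -2.10, -1.20 and -2.97.

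The difference of the breed effects between the tissues was tested in a single fit over all 24 libraries. MYD88 had a breed effect that was larger in the long bone by 2.03 (SE 0.50, adjusted p = 0.0167) on the log2 scale, and TLR1 by 1.52 (SE 0.42, adjusted p = 0.0270). TLR8, TLR7 and TLR2 were called at 2.04 (SE 0.71), 1.69 (SE 0.65) and 1.59 (SE 0.54), with adjusted p from 0.0612 to 0.0955. TLR7 lost its call with the replicate number as a block (1.49, adjusted p = 0.284), without DPLBJ replicate 3 (1.14, adjusted p = 0.227) and with limma. TLR1 lost its call with limma on log2(RPKM + 1). The 5 called members compare with 20.0% of the genes tested called in either direction and 12.9% in the same direction. TLR4 had -0.90 (SE 0.41, adjusted p = 0.154) and did not reach the fold threshold. With the 5 pituitary libraries low in anterior pituitary genes left out, and the pituitary effect then taken from adults, MYD88, TLR1, TLR8 and CD14 were called, at 2.39, 1.69, 2.45 and 1.82, while TLR2 (1.61, adjusted p = 0.306) and TLR7 (2.01, adjusted p = 0.286) were not, and none of the members then had an adjusted p under 0.05. The share of all genes called without those 5 libraries was not computed. In the fit of all 24 libraries, the pathway genes LY96, CD180, TLR9, TRAF3, SARM1 and IRF5 were called, all with a higher value in the long bone. IRF5 had the largest value at 2.74 (SE 0.60, adjusted p = 0.0100). The lists held 8 co-receptors and chaperones, 18 adaptors and proximal kinases, 8 transcription factors, 7 inhibitors and 7 cytokine targets found once. Whether they exceeded the 12.9% of all genes called in that direction was not tested.

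No member was called between juveniles and adults in any of the 4 comparisons. In DPs, 3.14% of the genes were DEGs in the long bone and 3.56% in the pituitary, and in MHs these shares were 2.91% and 7.74%. In each comparison 0 members were called, 0 had an unadjusted P under 0.05, and DESeq2 and limma called 0. The log2 fold changes between juveniles and adults ran from -0.56 to 0.42 in the DP long bone (SE 0.38 to 0.78) and from -0.77 to 0.56 in the MH long bone (SE 0.33 to 0.64). They ran from -0.35 to 0.65 in the DP pituitary (SE 0.24 to 0.53) and from -1.03 to 0.07 in the MH pituitary (SE 0.36 to 0.91). The breed difference itself was not called as different between the stages for any member, where 4.17% of the genes in the long bone and 15.7% in the pituitary were called. In both tests 0 members had an unadjusted P under 0.05, and DESeq2 and limma called 0. At the upper end of these SEs, a 2-fold change would not have passed the test.

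Between the tissues, 4 of 9 members were called, beside 38.9% of the genes tested. CD14, TLR2 and TLR8 were higher in the long bone, and TLR3 was higher in the pituitary. The log2 fold changes between the long bone and the pituitary, over breeds and stages, were 1.76 for CD14 (SE 0.29, adjusted p = 4.8e-05), 1.40 for TLR2 (SE 0.27, adjusted p = 0.000215), 1.81 for TLR8 (SE 0.36, adjusted p = 0.000293) and -1.09 for TLR3 (SE 0.22, adjusted p = 0.000341). Below a fold change of 2, MYD88 (0.88) and TLR6 (0.84) were higher in the long bone and TLR1 (-0.99) and TLR7 (-0.84) were higher in the pituitary, so 8 of 9 members had an adjusted p under 0.05, as did 61.8% of the genes tested. TLR4 had 0.43 (SE 0.21, adjusted p = 0.0756). By breed, MYD88 had a mean of 15.1 CPM in the long bone and 4.11 CPM in the pituitary of DPs, but 5.01 and 5.50 CPM in MHs. TLR7 had 7.88 and 7.90 CPM in DPs and 2.06 and 6.93 CPM in MHs, and TLR1 had 8.13 and 9.54 CPM in DPs and 2.27 and 7.92 CPM in MHs. The tissue difference of MYD88 thus lay in the DP means and that of TLR7 in the MH means. In the same order, TLR2 had 76.4 and 16.7 CPM in DPs but 22.1 and 14.3 CPM in MHs. TLR8 had 11.2 and 1.62 CPM in DPs but 3.10 and 1.83 CPM in MHs. The tissue differences of TLR2 and TLR8 were thus larger in the DP means. CD14 had 22.9 and 4.91 CPM in DPs and 23.6 and 9.71 CPM in MHs. TLR3 had 5.16 and 10.8 CPM in DPs and 4.20 and 8.96 CPM in MHs.

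TLR3 ran from 2.60 to 8.57 CPM in the 12 long bone libraries and from 4.40 to 13.9 CPM in the 12 pituitary libraries. Its call between the tissues was lost without DPLBJ replicate 2 (-0.97) and without MHPJ replicate 1 (-0.94). With limma on log2(RPKM + 1), TLR3 (-0.76) and TLR8 (0.73) both lost their calls between the tissues. With the 5 pituitary libraries low in anterior pituitary genes left out, 6 members were called, and TLR1 (-1.25) and TLR7 (-1.15) then passed the fold threshold as well. The share of all genes called in that fit was not computed. No MHPJ library remains in that fit, so the pituitary rests on DPPJ, DPPA and MHPA while the long bone keeps all its groups. Breed and stage are therefore not balanced between the tissues there. TLR8 was near the detection limit in the pituitary, with 2 reads in MHPJ replicate 3 and 12 to 65 reads in the other 11 libraries. CD36, a scavenger receptor that works with TLR2 and TLR6 and also takes up fatty acids in fat and muscle, was the most different pathway gene, with a log2 fold change of 8.38 (SE 0.66). TLR9, LY96 and LBP, the plasma protein that carries lipopolysaccharide to CD14, were higher in the long bone too, at 2.99, 1.19 and 2.81. TICAM1, the adaptor of TLR3, was higher in the long bone by 1.17 (SE 0.24, adjusted p = 0.000288), the opposite of TLR3.

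**Figure D4:**
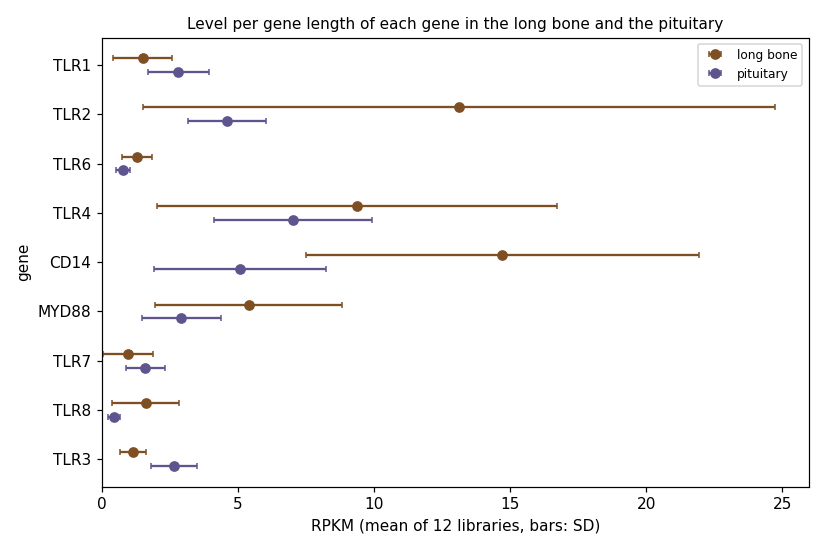
Mean RPKM (horizontal axis, bars are the SD of 12 libraries) of each gene (vertical axis), with brown points for the long bone and purple points for the pituitary. CD14, TLR2 and TLR4 have the highest means in both tissues, 14.7, 13.1 and 9.36 RPKM in the long bone and 5.06, 4.60 and 7.01 RPKM in the pituitary.

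Levels of different genes were compared by RPKM. In the long bone, the mean was 14.7 ± 7.22 RPKM for CD14, 13.1 ± 11.6 for TLR2, 9.36 ± 7.35 for TLR4 and 5.39 ± 3.45 for MYD88 (SD, n = 12). It was 1.61 ± 1.23 for TLR8, 1.49 ± 1.07 for TLR1, 1.28 ± 0.55 for TLR6, 1.13 ± 0.48 for TLR3 and 0.95 ± 0.93 for TLR7. MYD88 was above TLR8 in 12 of 12 libraries, and every other pair of neighbours in this order changed places in at least 4 libraries and lay within their spread.

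In the pituitary, TLR4 led at 7.01 ± 2.91 RPKM and was above CD14 (5.06 ± 3.15) in 11 of 12 libraries. CD14 was above TLR2 in 5 of 12. TLR2 followed at 4.60 ± 1.43 and was above MYD88 (2.91 ± 1.44) in 12 of 12. TLR1 (2.81 ± 1.11) and TLR3 (2.64 ± 0.86) did not differ from MYD88 or each other beyond their spread. TLR7 (1.59 ± 0.71), TLR6 (0.78 ± 0.25) and TLR8 (0.44 ± 0.21) each lay below the gene before them in at least 11 of 12 libraries.

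The order of TLR2 and TLR4 differed between the breeds in the long bone. TLR2 was above TLR4 in 6 of 6 DP libraries and in 2 of 6 MH libraries, and the ratio of their RPKM had a median of 3.79 in DPs (1.16 to 5.44) and 0.57 in MHs (0.14 to 1.18). The lowest DP ratio was thus under the highest MH ratio. TLR2 had the highest RPKM of all members in 5 of 6 DP long bone libraries and CD14 in 4 of 6 MH libraries. In the pituitary TLR4 was first in 10 of 12 libraries. The RPKM of TLR2 in DPLBA replicate 2 was 10.1% away from the value its reads give, that of TLR1 6.07% and that of CD14 5.82%, and the other members were within 1% there.

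For each member the 3 genes with the most similar profile were taken from the Pearson correlation of log2 CPM over the 12 libraries of a tissue, a description whose points share breed and cell makeup. In the long bone TLR2 was most like IGHM (r = 0.960), the heavy chain of immunoglobulin M, SUSD3 and PYCARD, the inflammasome adaptor. TLR8 was most like TAGAP (r = 0.972), TNFAIP8L2 and ACPP, and MYD88 was most like CYBB (r = 0.961), the catalytic subunit of the phagocyte oxidase, TAGAP and PPBP, a platelet chemokine. TLR7 was most like IGSF6 (r = 0.950), GREM1 and SLC43A3, and TLR1 most like ERCC4 (r = 0.963), SH3BGRL and ASAH1. Spearman's rho of these 5 leading pairs was 0.951, 0.916, 0.909, 0.916 and 0.930 in the same order. Leaving out the 2 libraries farthest from the median gave r = 0.967, 0.958, 0.944, 0.917 and 0.936. For TLR4, CD14, TLR3 and TLR6 the leading genes were TMEM140 (r = 0.923), L3MBTL2 (r = 0.912), NIPSNAP3A (r = 0.931) and MANEA (r = 0.908).

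In the pituitary TLR1 and TLR7 were each other's most similar gene (r = 0.942, rho = 0.881, and r = 0.854 without the 2 farthest libraries). MYD88 was most like CPT1A (r = 0.955), HYAL2 and IRAK1 (r = 0.920), the kinase that MYD88 recruits. The leading genes were TBX15 for TLR2 (r = 0.918), SLFN5 for CD14 (r = 0.926), LRRC1 for TLR4 (r = 0.888), IL21R for TLR3 (r = 0.889), NDUFAF7 for TLR6 (r = 0.924) and KDSR for TLR8 (r = 0.912). The last fell to r = 0.597 without the 2 farthest libraries.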

How the data were processed

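RNA of 24 libraries in 8 groups of 3 was analysed. Per the labels, the RNA was depleted of ribosomal RNA and made into directional libraries, and TopHat2, bcl2fastq and edgeR were used by the submitters. The study's methods name the EquCab 3.0 genome. The authors deposited whole read counts per gene, without normalization, and RPKM, which they scaled by gene length and library size. The methods also name Salmon, for transcript TPM, which were not used here. Which tool made the deposited counts, and with which strand setting, is not given in the sources used here. Genes were matched by symbol, and 9 of 10 were found. The 10 genes and all lists were chosen with earlier results of these data known.

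Counts were tested with edgeR 4.0.16 (R 4.3.3) by the quasi-likelihood test after TMM normalization and filterByExpr (minimum count 10), with the libraries of the groups compared. DEGs had P under 0.05 and a fold change over 2. Adjusted p-values are Benjamini-Hochberg values over all genes tested in the comparison, and the SE is the log2 fold change divided by the root of the F statistic. CPM uses TMM factors over all 24 libraries. RPKM served only to compare genes with each other and in alternatives with limma 3.58.1 on log2(RPKM + 1) and log2(RPKM + 0.1). DESeq2 1.42.0, other normalizations, no filter, a replicate block and each library left out were also tried. The fits were tested on simulated data. Libraries of a group come from separate horses, and no 2 libraries of a group agreed within sampling noise. Replicate numbers come from the labels, which do not say that a number marks the same horse or day. Of the breed comparisons within a tissue and stage, every same-numbered pair correlated over 0.1 in its deviations from the group means only in the adult pituitary (0.371 to 0.638), where replicate 1 of both breeds was low in anterior pituitary markers. With the block, CD14 stayed the 1 member called there (-1.35, adjusted p = 0.361). The text names the 9 genes, up to 6 called genes per pathway list and comparison, and the 3 genes most like each member. Depth was 11433209 to 27007342 reads per library, which limits the precision of genes at a few CPM. The result of 1 marker gene is not reported here.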

Additional observations from a re-analysis of the deposited data

Results flagged for a closer look

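A breed effect differing between the long bone and the pituitary by the test of the difference itself was found for 5 of 9 members, beside 20.0% of all genes tested in either direction and 12.9% in the same direction. The difference on the log2 scale was 2.03 for MYD88 (adjusted p = 0.0167), 1.52 for TLR1 (adjusted p = 0.0270), 1.59 for TLR2 (adjusted p = 0.0612), 1.69 for TLR7 (adjusted p = 0.0955) and 2.04 for TLR8 (adjusted p = 0.0685), with edgeR's quasi-likelihood test. All 5 had an unadjusted P under 0.05. The call of TLR7 was lost with the replicate number as a block (1.49, adjusted p = 0.284), without DPLBJ replicate 3 (1.14, adjusted p = 0.227) and with limma. With limma on log2(RPKM + 1) TLR1 lost its call too (0.75, adjusted p = 0.125). All 3 MHPJ libraries were low in anterior pituitary genes, which cannot be told apart from breed in the juvenile pituitary. With the 5 such pituitary libraries left out, TLR2 and TLR7 were not called, and no member had an adjusted p under 0.05. The neutrophil markers had a median difference of 7.43 in the same test, with 5 of 5 called, and their part in the 5 results was not tested.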

How the results depend on the processing

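Of 573 log2 fold changes recomputed for the 26 results that passed the threshold, 530 kept their direction and stayed past it, 43 kept their direction and fell short of it, and 0 changed direction. Requiring an adjusted p under 0.05 left 0 called members in the juvenile long bone (4 as reported), 1 in the adult long bone (6), 0 in the adult pituitary (1) and 2 in the difference of breed effects between tissues (5), and gave 8 between tissues (4). With limma on log2(RPKM + 1) the counts were 0 in the juvenile long bone, 2 in the long bone over both stages (6), 2 between tissues and 3 in the difference of breed effects. In the juvenile long bone the count was 2 without normalization factors, 2 with limma on log2(RPKM + 0.1) and 2 with the replicate block. Without normalization factors the pituitary over both stages gave 1 (0), and fitting all 12 pituitary libraries gave 1 between stages in MHs (0). Leaving out 1 library at a time gave 1 to 6 called members in the juvenile long bone, 5 to 6 in the adult long bone, 0 to 2 in the adult pituitary, 0 to 1 in each of both long bone stage comparisons and in the MH pituitary stage comparison, 5 to 6 in the long bone over both stages, 0 to 1 in the pituitary over both stages, 0 to 1 in each comparison of breed by stage, 3 to 6 between tissues and 4 to 6 in the difference of breed effects. The cause of these changes was not tested unless given. Same-numbered libraries of both tissues correlated at -0.141 to 0.261 in their deviations from the group means, 1 of 12 pairs was over 0.1, and 6 libraries correlated best with their own number. Within a tissue, 36 pairs ran from -0.464 to 0.638 and 9 were over 0.1. TLR8 in the pituitary and TLR9, TLR10 and IL6 in the long bone rest on few reads.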
